A study of Homo sapiens with 6 samples.

Results

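PDE10A and VIPR1 are 2 human genes of cyclic AMP signalling, and their readings were followed through all 6 libraries of LX-2 cells, a line derived from hepatic stellate cells. The cells, recorded as wild type, had been kept for 24 h with cynaroside, which is luteolin carrying a glucose, with FEBJ (an extract of the fruit of Brucea javanica, and so a mixture of compounds) or with DMSO, the solvent control. Each group held 2 libraries made from total RNA, with no doses in the labels. Whether the libraries of 1 group are separate cultures is not in the labels. Every p-value therefore measures the spread between these libraries, which may be technical. The fits pool that spread over genes, so a standard error can be smaller than a gene's own 2 libraries would give. Both genes were chosen by their log2 fold changes here: PDE10A was among the largest rises after cynaroside and VIPR1 among the largest rises after FEBJ. Those comparisons are therefore described and not tested.

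Cyclic AMP is made by adenylyl cyclases when a receptor coupled to a stimulatory G protein is occupied, and it is removed by phosphodiesterases. VIPR1 encodes VPAC1, such a receptor, which binds vasoactive intestinal peptide and the related peptide PACAP. PDE10A encodes a phosphodiesterase that hydrolyses both cyclic AMP and cyclic GMP and is best known from neurons of the striatum. Cyclic AMP releases the catalytic subunits of protein kinase A, which phosphorylate the transcription factor CREB. CREB binds the cyclic AMP response element, whose palindrome is TGACGTCA and whose half-site is TGACG. In stellate cells cyclic AMP is generally known for opposing the shift to the matrix-producing myofibroblast.

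In the deposited counts, rows of non-coding genes often hold far more counts than the row of the protein-coding gene on the other strand, and the strand setting of the counting step is not given in the sources used here. Each gene was therefore read from the non-coding rows whose exons overlap, by at least 50 bp, its exons and no other gene's on the opposite strand. This opposite-strand reading covers 1699 protein-coding genes, of which 1443 had enough counts to be tested. Antisense rows remain uncertain under such counting, because reads of the antisense gene itself and of the gene opposite to it cannot be told apart.

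For PDE10A the annotation goes against the name. Its reading came from 1 row, LINC00602, a long intergenic RNA gene on chromosome 6 with 2065 bp of exon, of which 528 bp (25.6%) lie opposite exons annotated to PDE10A. In GENCODE release 29 none of the 9 protein-coding and none of the 3 nonsense-mediated-decay transcripts of PDE10A has an exon there. The 8 PDE10A transcripts that do, over 364 to 528 bp, all belong to the 12 processed transcripts, a non-coding class. RefSeq gives the RNA that starts at this place a gene of its own, LINC00473, and also lists LINC00473 as a synonym of PDE10A. LINC00473 is known as a human non-coding RNA that is switched on through CREB when cyclic AMP rises. The reading is therefore called the PDE10A-locus reading below, and it holds no counts known to come from an mRNA for the phosphodiesterase.

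The reading of VIPR1 also came from 1 row, VIPR1-AS1, an antisense gene on chromosome 3 with 5197 bp of exon, of which 844 bp (16.2%) lie opposite exons of VIPR1. Here 15 of the 17 VIPR1 transcripts were covered. They included all 6 protein-coding transcripts, each over 167 to 321 bp, and all 4 nonsense-mediated-decay transcripts. The counts carry no position within a row, so counts from the overlapping bases and from the remaining bases of LINC00602 or VIPR1-AS1 cannot be told apart. Values given for VIPR1 below, its own row apart, are those of VIPR1-AS1. They are not known to come from the mRNA of the receptor.

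**Figure D1:**
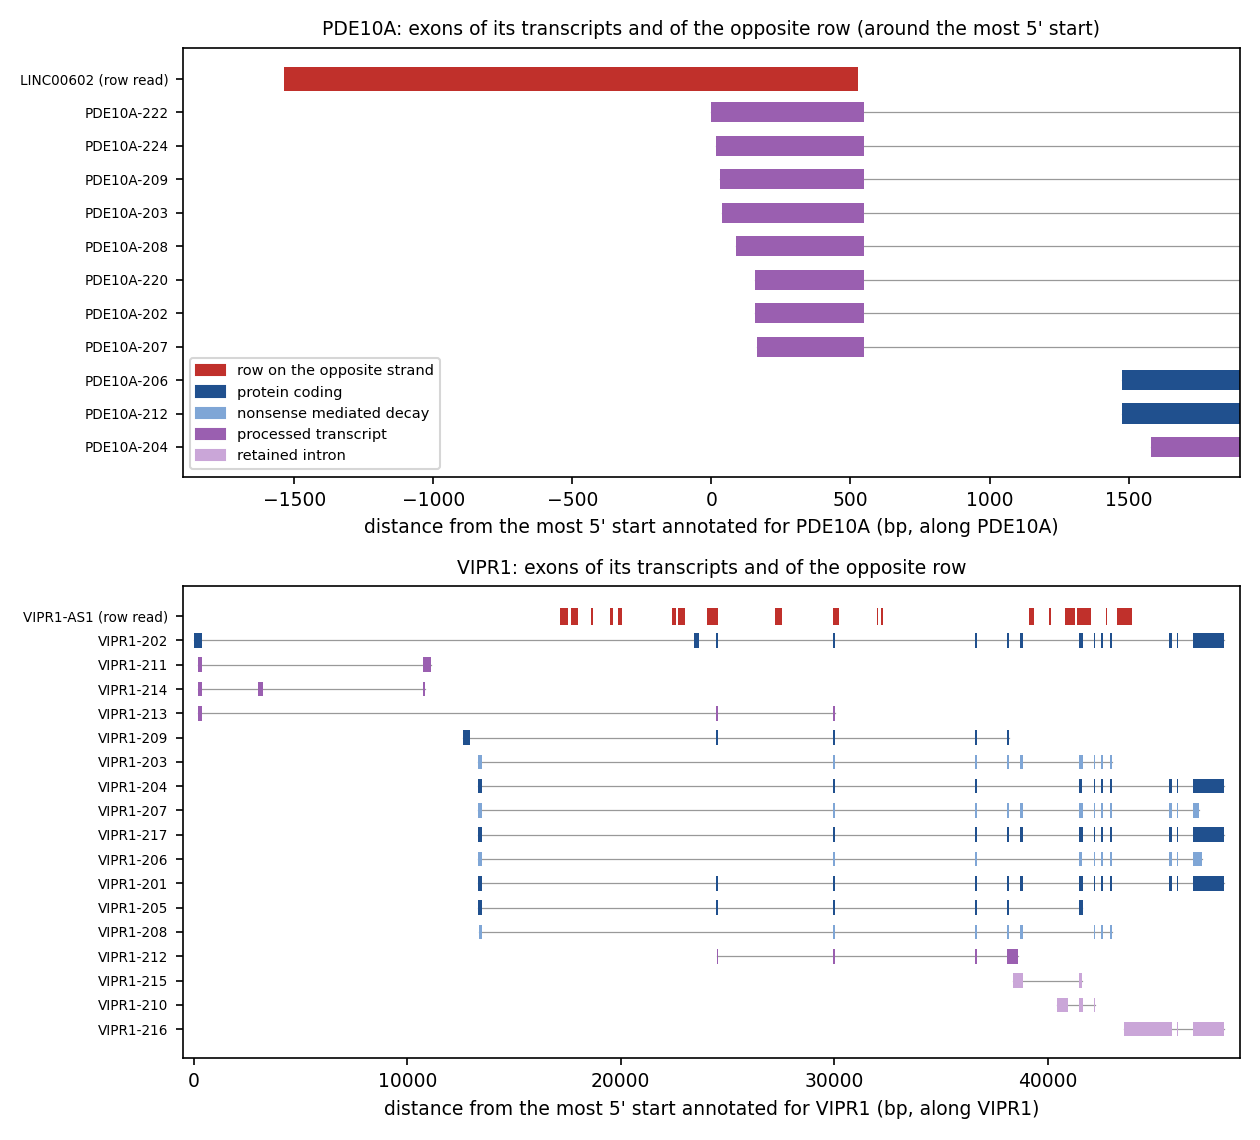
Exons of the row read (red, top line of each panel) and of the annotated transcripts, coloured by transcript type, against the distance in bp from the most 5' annotated start of PDE10A (upper panel, first stretch of the gene only) and of VIPR1 (lower panel). The LINC00602 exon reaches over the first exon of 8 processed PDE10A transcripts and over no protein-coding exon, whereas exons of VIPR1-AS1 lie over exons of all 6 protein-coding VIPR1 transcripts.

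The promoters are shown because they separate the RNA that lies opposite LINC00602 from the coding transcripts of PDE10A. Each window runs from 250 bases before to 50 bases after a start in RefSeq on GRCh38.p14, and capitals mark a match to the half-site TGACG or its reverse complement CGTCA. The LINC00473 window is chr6:165987990-165988289 (minus strand), the PDE10A window is chr6:165663192-165663491 (minus strand) and the VIPR1 window is chr3:42502393-42502692 (plus strand).
LINC00473: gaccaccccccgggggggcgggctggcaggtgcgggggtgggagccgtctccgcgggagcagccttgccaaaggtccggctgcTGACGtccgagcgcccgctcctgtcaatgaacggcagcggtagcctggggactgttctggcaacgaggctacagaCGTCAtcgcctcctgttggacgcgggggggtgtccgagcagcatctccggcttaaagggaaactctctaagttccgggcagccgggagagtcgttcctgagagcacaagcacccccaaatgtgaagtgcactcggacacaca
PDE10A: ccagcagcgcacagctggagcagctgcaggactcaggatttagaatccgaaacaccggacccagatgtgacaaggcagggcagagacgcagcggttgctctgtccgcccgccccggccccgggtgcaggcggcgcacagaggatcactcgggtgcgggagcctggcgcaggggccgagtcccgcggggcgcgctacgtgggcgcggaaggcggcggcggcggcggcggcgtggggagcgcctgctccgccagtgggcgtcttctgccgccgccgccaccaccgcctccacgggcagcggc
VIPR1: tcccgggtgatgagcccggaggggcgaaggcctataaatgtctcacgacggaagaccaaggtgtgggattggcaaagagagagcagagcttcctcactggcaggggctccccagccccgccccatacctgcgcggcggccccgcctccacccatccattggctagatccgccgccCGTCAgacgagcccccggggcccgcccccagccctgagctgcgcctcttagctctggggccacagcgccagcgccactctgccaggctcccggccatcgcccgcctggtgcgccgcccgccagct
The LINC00473 window held 2 half-sites, 1 on each strand, with their first bases 167 and 92 bases before the start. The PDE10A window held none, nor did the other RefSeq window of PDE10A, chr6:165662231-165662530. The VIPR1 window held 1 half-site on the minus strand, 75 bases before the start, and the other VIPR1 window, chr3:42489049-42489348, held none. Of the windows of the rows read, that of LINC00602 held 1 half-site and that of VIPR1-AS1 held none. None of the 7 windows held the full palindrome TGACGTCA, which contains the half-site. Among 35116 RefSeq windows of this length, searched on both strands, 24.6% held a half-site, 6.02% held at least 2 and 1.85% held the palindrome. A match describes these letters only and says nothing of binding.

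The PDE10A-locus reading was high after cynaroside and low in DMSO. LINC00602 held 65 and 248 counts in the cynaroside libraries, 16 and 30 in the FEBJ libraries and 7 and 11 in the DMSO libraries. Scaled by TMM to CPM, counts per 1e6 counts of the opposite-strand reading, these were 97.2 and 126 CPM after cynaroside, 15.7 and 21.1 CPM after FEBJ, and 7.12 and 7.67 CPM in DMSO. Both cynaroside libraries lay above both FEBJ libraries, which lay above both DMSO libraries, so no 2 groups overlapped. The means were 112 ± 20.5 CPM after cynaroside, 18.4 ± 3.80 CPM after FEBJ and 7.39 ± 0.39 CPM in DMSO (SD, n = 2 each).

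The cynaroside difference, which chose the gene, was 15.1-fold over DMSO, a log2 fold change of 3.91 ± 0.40 (standard error). It was the 4th largest of 497 rises after cynaroside that had a mean of at least 5 CPM and no overlap with DMSO. The 3rd was GSTCD (4.36 ± 1.49), which held only 8.97 and 11.2 CPM after cynaroside and 0 and 0.697 CPM in DMSO. The 5th was DNAI4, at 3.45 ± 0.49. Across all 1443 genes tested, 7 had a larger fold change.

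The FEBJ difference of the PDE10A-locus reading was not used in the choice, although it shares the DMSO libraries with the comparison that was. The reading rose 2.49-fold after FEBJ, a log2 fold change of 1.32 ± 0.48 (edgeR's quasi-likelihood test, adjusted p = 0.00981). It was higher in both FEBJ libraries than in both DMSO libraries. The background was high: 70.5% of the 1443 genes were called after FEBJ, 35.8% as rises and 34.7% as falls, and 225 genes had a larger rise. The 95% Poisson intervals of single libraries overlapped, with 8.99 to 25.5 CPM in FEBJ 1 and 14.2 to 30.1 CPM in FEBJ 2, against 2.86 to 14.7 CPM in DMSO 1 and 3.83 to 13.7 CPM in DMSO 2. These intervals, like all counting intervals and floors given here, cover counting error only. The call was lost without FEBJ 2 (1.07, edgeR adjusted p = 0.106), without DMSO 1 (1.26, 0.0509), without DMSO 2 (1.37, 0.0548) and with only the 4 libraries compared (1.28, 0.0707). The fold change stayed between 1.07 and 1.53 in all 18 alternatives, so it kept its direction in each.

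The own row of PDE10A, the sense row if the counting followed the strand, was nearly empty. It held 0 and 1 counts after cynaroside, 2 and 5 after FEBJ and 6 and 5 in DMSO, which is the reverse order of the reading. These counts were too few for a test. Among genes with at least 20 counts in the reading, the own row also took a smaller share of it in treated cells. Its median was 2.07 and 2.53% of the reading after cynaroside, 4.04 and 4.33% after FEBJ, and 7.21 and 7.34% in DMSO. The part of that general difference in the own-row counts of PDE10A was not tested.

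**Figure D2:**
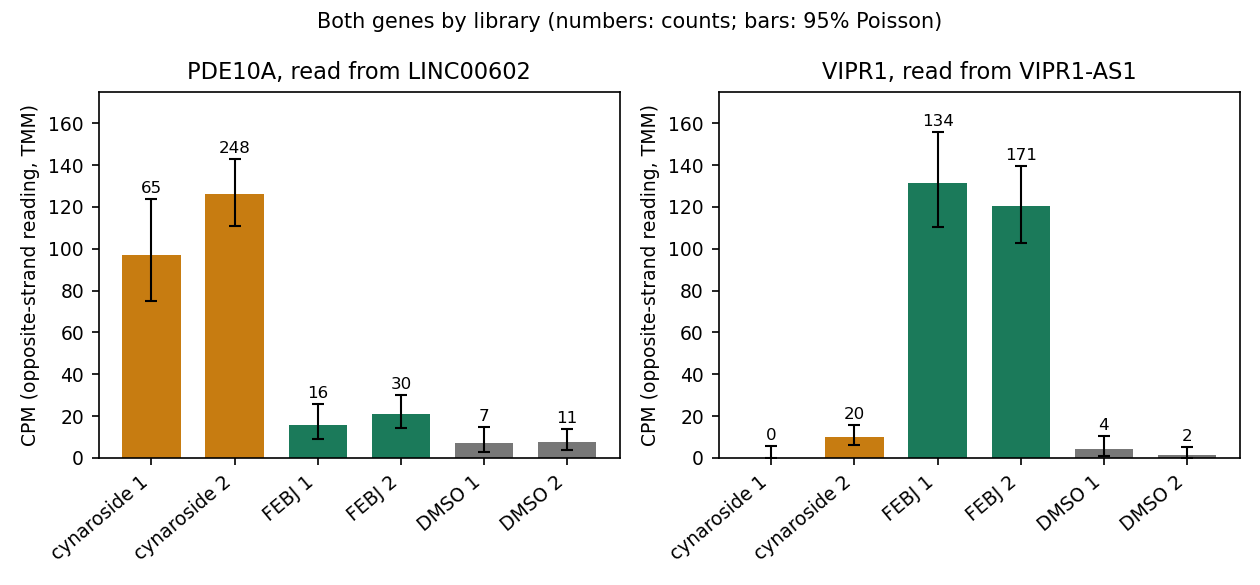
CPM of the opposite-strand reading (y axis) in each library (x axis), with bars for the value, lines for its 95% Poisson interval and the raw count above. The PDE10A-locus reading is high in both cynaroside libraries and lowest in DMSO, and VIPR1 is high in both FEBJ libraries, with a count of 0 in cynaroside 1.

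The VIPR1 reading was high after FEBJ, near the limit of detection in DMSO and cynaroside 1, and above that limit in cynaroside 2. VIPR1-AS1 held 0 and 20 counts in the cynaroside libraries, 134 and 171 in the FEBJ libraries and 4 and 2 in the DMSO libraries. These were 0 and 10.2 CPM after cynaroside, 132 and 120.3 CPM after FEBJ, and 4.07 and 1.395 CPM in DMSO. Both FEBJ libraries stood far above the other 4, whereas the cynaroside libraries lay on either side of both DMSO libraries. The means were 5.09 ± 7.19 CPM after cynaroside, 126 ± 8.05 CPM after FEBJ and 2.73 ± 1.89 CPM in DMSO (SD, n = 2 each). In bulk libraries, more cells that carry an RNA and more RNA per cell cannot be told apart, for either gene.

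The FEBJ difference of the VIPR1-AS1 row, which chose the gene, was 48.4-fold over DMSO (log2 5.60 ± 0.49), on a DMSO total of only 6 counts. It was the 10th of 621 such rises after FEBJ. The 9th was SYP, a synaptic vesicle protein, at 6.20 ± 1.06, and the 11th was PLA2G4C, a cytosolic phospholipase, at 5.51 ± 0.22. In all, 10 genes of the 1443, at any level, had a larger fold change.

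After cynaroside VIPR1 was not called. Its fitted log2 fold change over DMSO was 1.48 ± 0.71, or 2.78-fold (edgeR's quasi-likelihood test, unadjusted p = 0.0379, adjusted p = 0.0801), in a comparison that shares its DMSO libraries with the one that chose the gene. VIPR1 passed the filter on low counts only through the FEBJ libraries, where it is high, and the filter removed it when the 4 cynaroside and DMSO libraries were fitted alone. The p-values therefore depend on the FEBJ libraries, which chose the gene, and they decide nothing about VIPR1 after cynaroside. The standard error of 0.71 rests on a spread pooled over genes, and DESeq2 gave 1.06 ± 1.5 (DESeq2 adjusted p = 0.640). Of all 1443 genes, 41.7% were called after cynaroside, 20.2% as rises and 21.6% as falls, and 48 had a larger fold change. The value rested on cynaroside 2. Without cynaroside 1 it was 2.01. Without cynaroside 2 the only cynaroside library left held 0 counts, and the fitted value was -4.53, a number that depends on the prior count and is no bound. It was 2.28 without DMSO 1 and 0.80 without DMSO 2.

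Depth bears on that 0. Cynaroside 1 was the shallowest library, with 1599000 counts in gene rows against 4709317 in cynaroside 2. The floor of 3 counts corresponds there to 4.48 CPM, and the 95% Poisson interval of the 0 reaches 5.51 CPM. That is still below the 95% Poisson interval of cynaroside 2, 6.21 to 15.7 CPM. At the rate of cynaroside 2 the shallow library would have held 6.81 counts. Of the 91 genes with 15 to 30 counts in cynaroside 2, 7 (7.69%) held 0 in cynaroside 1, and the median was 7 counts. The own row of VIPR1 added nothing, with 0 and 2 counts after cynaroside, 0 and 0 after FEBJ and 0 and 1 in DMSO.

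Set side by side per kb of the row read, the PDE10A-locus reading had 54.1 ± 9.93 CPM per kb after cynaroside, 8.92 ± 1.84 after FEBJ and 3.58 ± 0.19 in DMSO. VIPR1 had 0.979 ± 1.384 CPM per kb after cynaroside, 24.2 ± 1.55 after FEBJ and 0.526 ± 0.364 in DMSO (SD, n = 2). The order of the groups was thus cynaroside, FEBJ, DMSO for the PDE10A locus, with each step larger than the spread between libraries. For VIPR1, FEBJ stood first, and cynaroside and DMSO did not differ beyond their spread. FEBJ over cynaroside, the log2 fold change was -2.59 ± 0.35 for the PDE10A locus and 4.12 ± 0.41 for VIPR1, both given as descriptions because the choice fixed them.

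**Figure D3:**
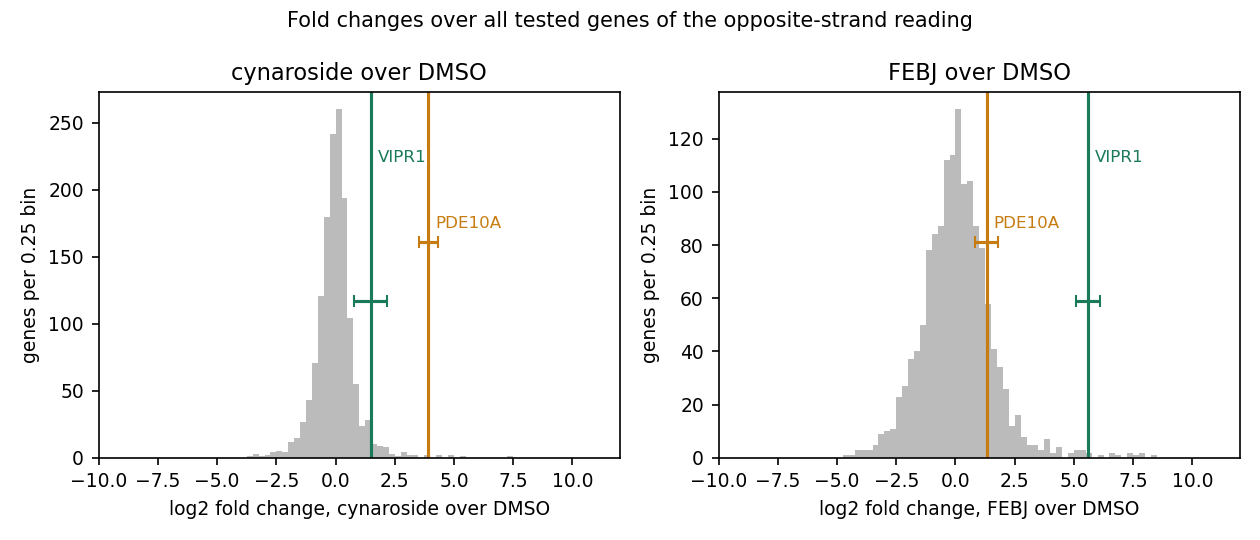
Number of genes per 0.25-wide bin (y axis) by log2 fold change (x axis) over the 1443 genes of the opposite-strand reading, cynaroside over DMSO on the left and FEBJ over DMSO on the right, with lines for PDE10A and VIPR1 and horizontal bars for ± 1 standard error. PDE10A lies at 3.91 after cynaroside and 1.32 after FEBJ, and VIPR1 at 1.48 and 5.60.

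All fold changes are relative to the scaling. TMM within the opposite-strand reading put the median of all 1443 genes at -0.01 after cynaroside and 0.05 after FEBJ. Placing the same sums in the table of all deposited rows and scaling there moved these medians by 0.47 and 0.22, and rises then made up 89.6% of the calls after cynaroside (48.3% as reported) and 60.0% after FEBJ (50.8% as reported). The PDE10A-locus reading moved with the median, to 4.38 after cynaroside and 1.53 after FEBJ, and VIPR1 to 1.92 after cynaroside. The call after FEBJ held there (edgeR adjusted p = 0.00938), and VIPR1 after cynaroside did not pass (edgeR adjusted p = 0.0516).

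The genes whose pattern over the 6 libraries was most like that of the PDE10A locus were found by Euclidean distance between centred log2 CPM, among 1438 genes. They were CCDC102B (distance 1.19, Pearson r = 0.95), GSTCD (1.84, 0.88), ZNF718 (1.95, 0.86), RAD51D (2.02, 0.91) and PRR36 (2.20, 0.83). CCDC102B, the nearest, had 40.4 and 22.4 CPM after cynaroside, 1.97 and 7.03 CPM after FEBJ, and 2.03 and 0.697 CPM in DMSO. The highest value of any of these 5 genes was 40.4 CPM, so all were measured on few counts. The nearest to VIPR1 were PLA2G4C (1.35, 0.98), FILIP1 (1.75, 0.97), CMTM2 (1.76, 0.99), SYP (1.81, 0.97) and GATA6 (2.12, 0.94). PLA2G4C had 8.97 and 22.9 CPM after cynaroside, 641 and 694 CPM after FEBJ, and 17.3 and 12.6 CPM in DMSO, and GATA6, a transcription factor of endoderm and mesoderm, had 5.98 and 6.61, 172 and 191, and 4.07 and 4.18 CPM in the same order of groups. All 5 genes were high in both FEBJ libraries, which follows from their choice by distance to VIPR1. The points share 6 libraries in 3 groups, so these correlations mostly restate the group means.

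The rest of the pathway was read from 10 lists with 169 genes. Apart from PDE10A and VIPR1, 15 had a tested opposite-strand reading. After cynaroside 4 rose, 3 fell and 8 were not called (median log2 fold change -0.31, against -0.01 over all genes). After FEBJ 3 rose, 5 fell and 7 were not called (median -0.10, against 0.05). The called members thus went both ways after either treatment, near the background share of 41.7% after cynaroside and under that of 70.5% after FEBJ.

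Among ligands and receptors, PTHLH, the gene of parathyroid hormone-related protein, had 14.9 and 12.7 CPM after cynaroside, 74.7 and 76.7 CPM after FEBJ, and 49.8 and 39.1 CPM in DMSO. It fell by 1.71 ± 0.40 on the log2 scale after cynaroside (edgeR adjusted p = 0.000129) and rose by 0.78 ± 0.33 after FEBJ (0.0269). Neither treated group overlapped DMSO, but the FEBJ call was lost in 4 of 18 alternatives: without FEBJ 1 (edgeR adjusted p = 0.0865), FEBJ 2 (0.122) or DMSO 2 (0.219), and by DESeq2 (adjusted p = 0.0865). RAMP2, a partner protein of class B receptors, was not called after cynaroside (-0.31) or FEBJ (0.13). VIPR2, the other VIP receptor of the VPAC type, held 0 counts in both cynaroside libraries, 1 and 2 in the FEBJ libraries and 0 in both DMSO libraries, too few for a test.

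Of the enzymes of synthesis and breakdown, ADCY6, an adenylyl cyclase, had 522 and 549 CPM after cynaroside, 502 and 445 CPM after FEBJ, and 419 and 422 CPM in DMSO. It rose by 0.35 ± 0.11 on the log2 scale after cynaroside (edgeR adjusted p = 0.00656), a call lost without cynaroside 2 (0.0965), and after FEBJ its value of 0.17 did not pass, except with scaling in the deposited table (0.39, 0.00659). Its own row, by contrast, fell after FEBJ (-3.49 ± 0.96, edgeR adjusted p = 0.00344), with 0 and 1.13 CPM after FEBJ against 7.07 and 8.02 CPM in DMSO. PDE7B, a cyclic AMP-specific phosphodiesterase, had 59.8 and 85.0 CPM after cynaroside, 36.4 and 32.4 CPM after FEBJ, and 55.9 and 26.5 CPM in DMSO. Its rise after cynaroside (0.89 ± 0.32, edgeR adjusted p = 0.0152) was lost without cynaroside 2 (0.351) or DMSO 2 (0.446) and by DESeq2 (adjusted p = 0.134). PDE2A, which cyclic GMP activates, was not called after cynaroside (-0.78 ± 0.42, edgeR adjusted p = 0.119) or FEBJ (-0.26), except after cynaroside without cynaroside 2 (-1.44, 0.048). PDE4D, of the main cyclic AMP-specific family, held 0 and 15 counts after cynaroside, 2 and 0 after FEBJ, and 4 and 1 in DMSO, too few for a test. Its 2 cynaroside libraries split in the way those of VIPR1 did. GNAO1, an inhibitory G protein subunit, was called in neither comparison.

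Among the sensors of cyclic AMP, PRKAR2A, a regulatory subunit of protein kinase A, had 274 and 293 CPM after cynaroside, 100.2 and 120 CPM after FEBJ, and 297 and 252 CPM in DMSO. It fell by 1.30 ± 0.17 on the log2 scale after FEBJ (edgeR adjusted p = 3.54e-14) and was level with DMSO after cynaroside (0.06), where scaling in the deposited table gave 0.53 and a call (0.00816). Its own row fell after cynaroside (-1.59 ± 0.64, edgeR adjusted p = 0.0424) and was not called after FEBJ (-0.64). That cynaroside call was lost with no filter (0.0903), with 1 CPM in 2 libraries (0.0635) and with a replicate block (0.0665). It was also lost without FEBJ 1 and without either cynaroside or either DMSO library (-1.23 to -1.95). BVES, a Popeye protein that binds cyclic AMP, had 85.2 and 120.1 CPM after cynaroside, 46.2 and 69.6 CPM after FEBJ, and 121 and 196 CPM in DMSO. It fell by 1.44 ± 0.23 after FEBJ (edgeR adjusted p = 4.59e-10). Its fall of 0.60 ± 0.21 after cynaroside (edgeR adjusted p = 0.0148) was lost without cynaroside 1 (-0.39, 0.280) or DMSO 2 (-0.20, 0.654), with scaling in the deposited table (-0.12, 0.732) and by DESeq2 (adjusted p = 0.142). AKAP8L, a nuclear relative of the anchoring proteins of protein kinase A, had 1075 CPM in both cynaroside libraries, 1340 and 1362 CPM in the FEBJ libraries, and 367 and 410.1 CPM in the DMSO libraries. It rose by 1.46 ± 0.09 after cynaroside (edgeR adjusted p = 7.36e-60) and by 1.79 ± 0.09 after FEBJ (8.11e-92). Its own row was not called after cynaroside (-0.38 ± 0.51, edgeR adjusted p = 0.560) or FEBJ (0.98 ± 0.46, 0.0789). AKAP13 was not called in either, although with every opposite non-coding row summed it fell after FEBJ (-0.47, edgeR adjusted p = 0.000476). Its own row rose after cynaroside (1.13 ± 0.25, edgeR adjusted p = 0.000546) and after FEBJ (2.67 ± 0.23, 7.06e-11).

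Of the CREB coactivators, CRTC3, which is held in the cytoplasm until cyclic AMP signalling releases it, fell by 0.65 ± 0.17 on the log2 scale after FEBJ (edgeR adjusted p = 0.000204), a call lost without DMSO 1 (-0.37, 0.110). Its own row went the other way after FEBJ, with 31.4 and 26.9 CPM after FEBJ against 8.13 and 6.56 CPM in DMSO, a rise of 1.99 ± 0.41 (edgeR adjusted p = 0.000171). After cynaroside its value of 0.29 was not called, except without DMSO 1 (0.58, 0.0237) and with scaling in the deposited table (0.77, 0.000756). EP300, an acetyltransferase, fell by 0.97 ± 0.32 after FEBJ (edgeR adjusted p = 0.00384), which was lost with scaling in the deposited table (-0.76, 0.0624), and its value of -0.33 after cynaroside was not called. CREM, whose short forms are induced by CREB, held 0 and 5 counts after cynaroside, 6 and 8 after FEBJ, and 5 and 5 in DMSO, too few for a test.

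The targets of CREB that could be tested went in different directions. NR4A1, an orphan nuclear receptor and immediate early gene, had 434 and 399 CPM after cynaroside, 249.6 and 299 CPM after FEBJ, and 119 and 129 CPM in DMSO. Its groups stood in the same order as those of the PDE10A locus, with a rise of 1.15 ± 0.16 after FEBJ (edgeR adjusted p = 1.53e-12) and 1.73 ± 0.15 after cynaroside. BDNF, a neurotrophin, had 133 and 217 CPM after cynaroside, 71.7 and 97.1 CPM after FEBJ, and 391.6 and 431.7 CPM in DMSO. It fell by 1.16 ± 0.15 after cynaroside (edgeR adjusted p = 7.55e-13) and fell by 2.27 ± 0.17 after FEBJ (1.35e-39). IRS2, an insulin receptor substrate, was not called after cynaroside (-0.47) or FEBJ (-0.10). For BDNF the own row gave the opposite direction to the reading, with 15.8 and 18.9 CPM after cynaroside, 16.3 and 13.3 CPM after FEBJ, and 5.66 and 4.62 CPM in DMSO on the scale of the deposited rows. Which of these rows holds the BDNF mRNA cannot be told apart without the strand setting.

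**Figure D4:**
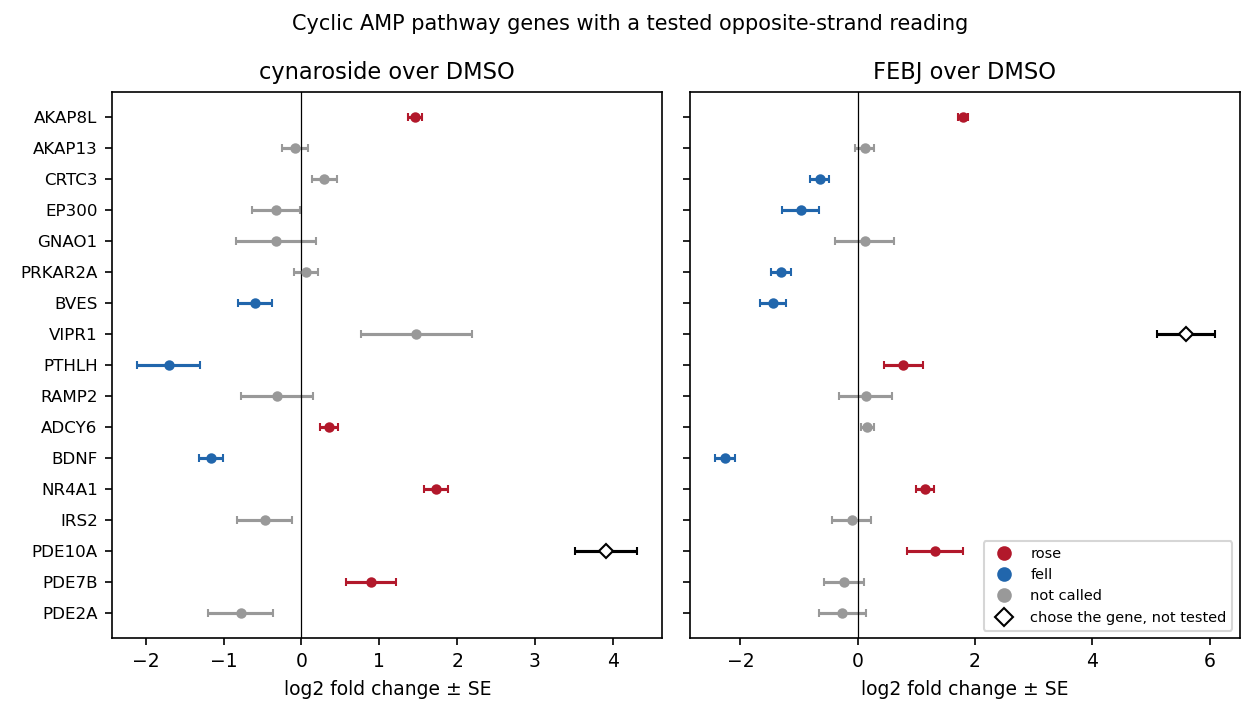
Log2 fold change ± standard error (x axis) of the 17 cyclic AMP genes with a tested opposite-strand reading (y axis), cynaroside over DMSO on the left and FEBJ over DMSO on the right, coloured by call at an edgeR adjusted p of 0.05. Open diamonds mark the comparison that chose PDE10A and VIPR1, which was not tested, and the other genes lie on both sides of 0 in both panels.

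The deposited rows of the same lists were tested apart, as counted. They gave 54 tested rows, with 15 rises and 10 falls after cynaroside (median -0.39) and 11 rises and 11 falls after FEBJ (median -0.04). Over all 12012 rows tested, 45.4% were called after cynaroside (24.3% as rises and 21.1% as falls) and 50.8% after FEBJ (26% as rises and 24.8% as falls). Of the 24 phosphodiesterase genes 8 rows were tested, and PDE10A was not among them. The row of PDE11A, another phosphodiesterase of cyclic AMP and cyclic GMP, held 0 counts in both cynaroside libraries, 339 and 583 in the FEBJ libraries and 0 in both DMSO libraries, which is at least 353-fold higher after FEBJ than in DMSO, with the floor of 3 counts set over the DMSO group. As with VIPR1, both FEBJ libraries stood above the other 4. Exons of PDE11A-AS1 lie opposite it, so the strand that gave these counts cannot be told apart.

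PDE5A, the cyclic GMP-specific phosphodiesterase, had 130.4 and 136 CPM after cynaroside, 88.3 and 93.0 CPM after FEBJ, and 28.98 and 38.4 CPM in DMSO. It rose by 1.97 ± 0.18 on the log2 scale after cynaroside (edgeR adjusted p = 6.16e-10) and by 1.41 ± 0.18 after FEBJ (1.23e-07). PDE7A, a relative of PDE7B, had 50.1 and 54.4 CPM after cynaroside, 4.38 and 3.97 CPM after FEBJ, and 6.36 and 9.97 CPM in DMSO, and its rise of 2.65 ± 0.36 after cynaroside was called (edgeR adjusted p = 8.97e-07). Both treated groups lay above DMSO for PDE5A, but only the cynaroside group did for PDE7A. The pseudogene SEPTIN7P14 lies opposite PDE5A, and the gene MTFR1 opposite PDE7A.

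Upstream of the phosphodiesterases, the row of GNAS, the stimulatory G protein subunit, had 56.9 and 59.7 CPM after cynaroside, 85.2 and 63.2 CPM after FEBJ, and 258 and 214 CPM in DMSO. It fell by 2.01 ± 0.16 on the log2 scale after cynaroside (edgeR adjusted p = 3.97e-11) and fell by 1.68 ± 0.15 after FEBJ (1.55e-10), with GNAS-AS1 opposite. The row of GNAI2, an inhibitory subunit with no gene opposite, had 19.9 and 16.4 CPM after cynaroside, 11.1 and 7.94 CPM after FEBJ, and 77.4 and 88.7 CPM in DMSO, with log2 fold changes of -2.23 ± 0.27 after cynaroside and -3.14 ± 0.28 after FEBJ (edgeR adjusted p = 1.20e-07 and 1.83e-10). GNAI1, another inhibitory subunit, held 0 counts in both cynaroside libraries and 67 in DMSO, at least 17.4-fold lower, with the floor of 3 counts over the group. GNAL, the other stimulatory subunit, had 146 and 142 CPM after cynaroside, 282 and 245 CPM after FEBJ, and 80.2 and 78.8 CPM in DMSO. It rose by 0.86 ± 0.13 after cynaroside (edgeR adjusted p = 4.92e-06) and by 1.73 ± 0.12 after FEBJ (1.59e-12), with MPPE1 and an unnamed gene opposite. The rows of the 2 stimulatory subunits thus went in opposite directions, but both have genes opposite, so the strand of their counts cannot be told apart.

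ADCY5, an adenylyl cyclase with an unnamed gene opposite, had 30.2 and 28.7 CPM after cynaroside, 31.8 and 29.8 CPM after FEBJ, and 2.12 and 2.43 CPM in DMSO. It rose by 3.65 ± 0.43 after cynaroside (edgeR adjusted p = 8.09e-08) and by 3.72 ± 0.42 after FEBJ (2.01e-08). RAPGEF3, the cyclic AMP-activated exchange factor EPAC, had 47.3 and 47.4 CPM after cynaroside, 13.9 and 14.5 CPM after FEBJ, and 1.77 and 4.86 CPM in DMSO, the order of the PDE10A locus. It rose by 3.74 ± 0.42 after cynaroside (edgeR adjusted p = 2.99e-08) and by 2.01 ± 0.44 after FEBJ (0.000379), with SLC48A1 on the other strand. In the list of protein kinase A subunits and cyclic AMP sensors that holds RAPGEF3, 8 rows were tested. Of these, 2 rose and 3 fell after cynaroside, and 1 rose and 3 fell after FEBJ. Over all rows tested, 45.4% were called after cynaroside and 50.8% after FEBJ. PRKAR1A, a regulatory subunit of protein kinase A with no gene opposite, had 4.12 and 4.03 CPM after cynaroside, 3.98 and 5.39 CPM after FEBJ, and 21.2 and 19.4 CPM in DMSO. Its log2 fold changes were -2.31 ± 0.54 after cynaroside (edgeR adjusted p = 0.00101) and -2.09 ± 0.51 after FEBJ (0.00123). PRKACA, a catalytic subunit, also fell after cynaroside (-1.78 ± 0.54, edgeR adjusted p = 0.00942; 0.146 without DMSO 1) and after FEBJ (-2.69 ± 0.57, 0.000268). SIK2, a salt-inducible kinase that restrains the CRTC proteins, had 137 and 182 CPM after cynaroside, 38.2 and 34.0 CPM after FEBJ, and 32.5 and 41.1 CPM in DMSO, and rose by 2.12 ± 0.19 after cynaroside (edgeR adjusted p = 4.69e-10), with PPP2R1B opposite. For genes with a gene opposite, the counts of the row and of its partner cannot be told apart. For rows with no gene opposite the strand of the counts is not known either. Among genes with a reading, own rows took a smaller median share of it in treated cells. That share was 2.07 and 2.53% after cynaroside, 4.04 and 4.33% after FEBJ, and 7.21 and 7.34% in DMSO. The part of that difference in the falls of GNAI2, GNAI1, PRKAR1A and PRKACA was not tested.

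Depth and cell identity set the frame for these values. Gene rows held 1599000 to 4709317 counts per library, 5.48 to 6.12% of all counts, and 87.4 to 88.3% fell outside every feature. Summed over the deposited rows of 10 stellate cell markers, of which 7 had a count and COL1A2, DES and LRAT were at 0, the counts were 219 and 429 after cynaroside, 146 and 176 after FEBJ, and 1957 and 2865 in DMSO. VIPR1 is also known from hepatocytes, epithelia and T lymphocytes. The 7 hepatocyte markers summed to 0 and 7 counts after cynaroside, 31 and 39 after FEBJ, and 2 and 2 in DMSO, with 4 of them counted and ALB, TTR and HNF4A at 0 throughout. The 7 T lymphocyte markers summed to 16 and 50 counts after cynaroside, 10 and 18 after FEBJ, and 16 and 9 in DMSO, with CD3D, CD3G, CD2 and LCK at 0. The 5 epithelial markers summed to 836 and 2295 counts, 3570 and 5054, and 4244 and 6179 in the same order, with EPCAM and KRT19 at 0. The 4 macrophage markers, of which 3 had a count and CD163 was at 0, summed to 6.86 and 3.78 CPM after cynaroside, 9.95 and 10.8 CPM after FEBJ, and 1.77 and 1.95 CPM in DMSO, from 5 to 38 counts a library. Like VIPR1, the small hepatocyte and macrophage sums were highest in both FEBJ libraries. The macrophage sum was also above DMSO in both cynaroside libraries, which VIPR1 was not. The part of either cell type in the VIPR1 counts was not tested. The 4 endothelial markers gave at most 2 counts in any library.

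**Figure D5:**
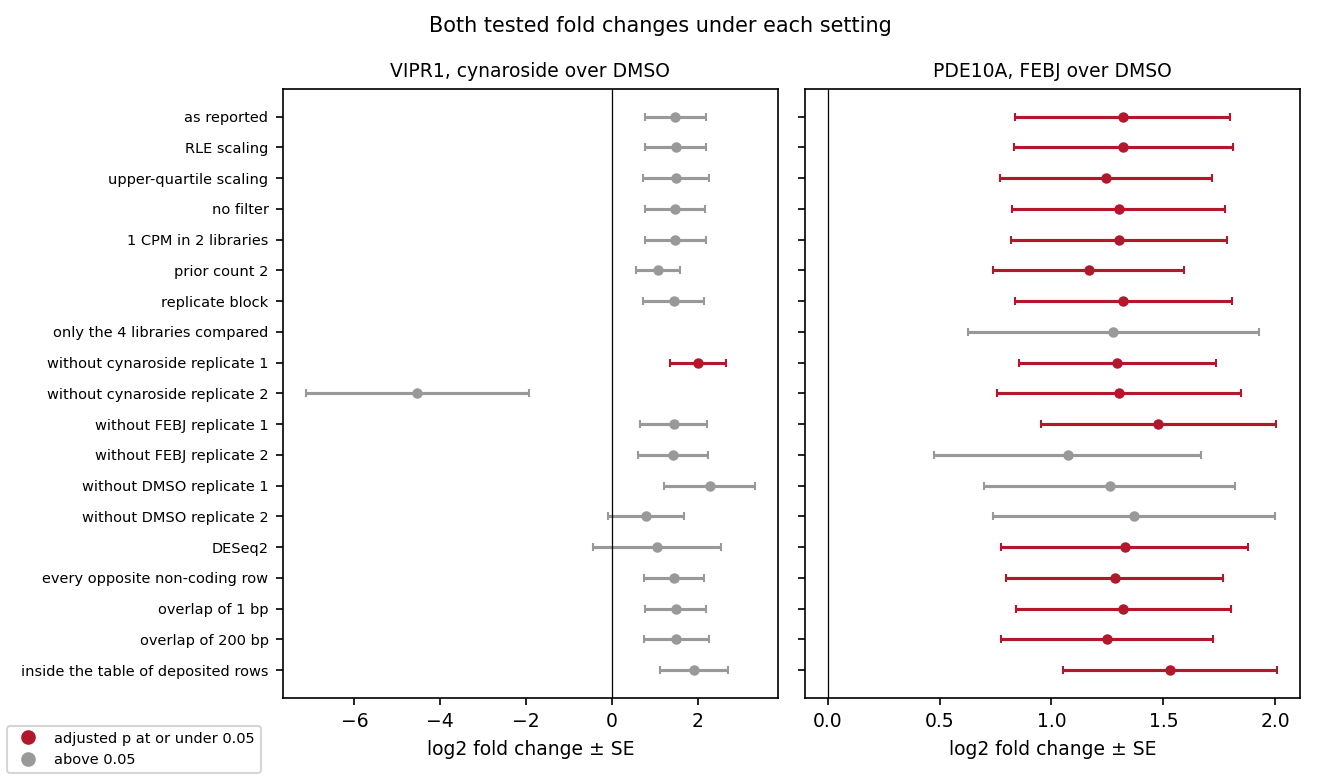
Log2 fold change ± standard error (x axis) under the reported setting and each alternative (y axis) for VIPR1, cynaroside over DMSO (left), and the PDE10A locus, FEBJ over DMSO (right), in red where edgeR's adjusted p (for DESeq2, its own) passed 0.05. VIPR1 turned to -4.53 without cynaroside 2, and its only red point, without cynaroside 1, comes from a fit with 1 cynaroside library. VIPR1 passed the filter only through the FEBJ libraries, so its colours decide nothing. The PDE10A locus stayed between 1.07 and 1.53 and passed in 14 of 18 alternatives.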

How the data were processed

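Total RNA from 6 libraries of LX-2 cells was sequenced. The authors deposited raw counts per Ensembl gene row. Per the submitters' processing notes, CASAVA 1.7, HISAT2, HTSeq 0.12.4, DESeq2 1.38.0 and the hg19 build were used; roles, strand setting and annotation release are not given in the sources used here. Each table held 62754 gene rows and 5 summary rows, which entered neither library sizes nor tests. Of all counts, 87.4 to 88.3% stood in the summary row of reads with no feature. Gene rows summed to 1599000 and 4709317 counts for cynaroside, 2507734 and 3524136 for FEBJ, and 2537896 and 3720981 for DMSO. A count of 0 was taken to allow up to 3 counts, the floor used here.

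Overlaps of exons on opposite strands came from GENCODE release 29 (GRCh38). The labels' build differs, so only lengths of overlap are given. A non-coding row was assigned to the single gene opposite its exons by at least 50 bp, if that gene is protein-coding and its own row held no more counts. This gave 1828 rows for 1699 genes. These sums and, apart from them, the deposited counts were fitted by edgeR 4.0.16 under R 4.3.3 (filterByExpr, TMM, 3 group means, 3 residual degrees of freedom, quasi-likelihood test, Benjamini-Hochberg adjustment over all genes tested, threshold 0.05). The filter kept 12012 rows and 1443 genes. Fold changes used a prior count of 0.125. A standard error from edgeR is the absolute log2 fold change divided by the square root of the test's F statistic. The code was tested on simulated data. Promoter windows came from RefSeq.

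PDE10A, VIPR1, the 10 cyclic AMP lists and the tests were chosen with earlier results of these data known. By rule, the genes named were every listed gene with a tested opposite-strand reading; up to 2 rising and 2 falling deposited rows per list with the smallest p; the 5 genes nearest in pattern to each of PDE10A and VIPR1; and their neighbours by rank. Of the deposited rows, most of the few printed came from those, while GNAI1 and the own rows of AKAP8L and PRKAR2A did not. All were picked after their values were seen. They were picked mostly for holding in every alternative, for a count of 0 in a group, or to set a gene's own row beside its reading. VIPR2, PDE4D and CREM, which could not be tested, were also picked then. Alternatives were other scalings (RLE, upper quartile), filters (none, or 1 CPM in 2 libraries), a prior count of 2, a replicate block, fewer libraries, DESeq2 1.42.0 and other overlap rules.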

Additional observations from a re-analysis of the deposited data

How the results depend on the processing

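Over 18 alternatives for the PDE10A locus after FEBJ and 17 for VIPR1 after cynaroside, the PDE10A locus kept its direction in all (1.07 to 1.48 when 1 library was left out, edgeR adjusted p 0.00927 to 0.106; 1.17 to 1.53 otherwise) and lost its call in 4, with 1.28 (edgeR adjusted p = 0.0707) when only the 4 libraries compared were fitted. VIPR1 gave 1.06 to 1.92 with other settings (edgeR adjusted p from 0.0516, DESeq2 adjusted p 0.640), and -4.53 to 2.28 when 1 library was left out. It was 2.01 without cynaroside 1 and -4.53 without cynaroside 2, where the library left held 0 counts. The filter removed VIPR1 when only its 4 libraries were fitted, so there is no value, and its p-values with the FEBJ libraries present decide nothing.

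Of the descriptions, PDE10A after cynaroside was 3.67 with a prior count of 2 and 4.38 inside the table of deposited rows, which moves the median of all genes by 0.47, and 3.69 to 4.09 with 1 library left out. VIPR1 after FEBJ was 4.95 with a prior count of 2 and 4.91 to 6.39 with 1 library left out. Called genes of the opposite-strand reading numbered 812 to 1148 after FEBJ (1017 as reported) and 462 to 779 after cynaroside (602). Called genes of the cyclic AMP lists numbered 5 after FEBJ with an overlap of 200 bp, where 11 were tested, and 7 to 9 with 1 library left out (8 as reported).

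With a replicate block the PDE10A locus after FEBJ was 1.32 (edgeR adjusted p = 0.0104), VIPR1 after cynaroside 1.44 (0.0918), and 1011 and 586 genes were called after FEBJ and cynaroside. Deviations of libraries with the same number correlated at -0.03 (FEBJ and DMSO), -0.01 (cynaroside and DMSO) and 0.11 (FEBJ and cynaroside) over 1181 genes. Depth limits VIPR1 outside FEBJ, where the row held 20 counts after cynaroside and 6 in DMSO.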
